A study of Mus musculus with 24 samples.

Results

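The mitochondrial protein import machinery was examined in the *M. gastrocnemius* of mice that breathed normal or reduced oxygen for 6 h. Its members were chosen by gene name as the *Timm* and *Tomm* genes whose symbol goes on with a number, together with *Samm50*, *Mtx1*, *Mtx2*, *Grpel1*, *Grpel2*, *Pmpca*, *Pmpcb*, *Immp1l*, *Immp2l*, *Chchd4* and *Gfer*. The names were those of the array, so that *Timm10b*, *Timm21* and *Timm29*, which it carries under the older names *Fxc1*, *1700034H14Rik* and *1810026J23Rik*, count among the further pathway genes and not among the members. This gave 33 genes with 54 of the 55681 probes of the array. A member counted as measured where the signal of the mouse RNA averaged over 2 times the local background across the 24 arrays, which held for 30 members with 42 probes, among 9139 genes measured in all. *Grpel2*, *Timm8a2* and *Tomm20l* stayed below that threshold with every probe. Just outside it lay a second probe of *Timm8a1* at 1.97 times the background and a probe of *Grpel2* at 1.86 times, and just inside it second probes of *Tomm40* at 2.20 times and of *Timm9* at 2.25 times.

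Male C57BL/6JOlaHsd mice, which arrived at 10 weeks of age, received a low-fat diet with 10% of energy from fat and then a high-fat diet with 40% of energy from fat for 6 weeks. The 12 Norm mice were kept at 20.9% oxygen and the 12 Hypox mice at 12% oxygen for 6 h, and both groups were without food during that time. Total RNA of the muscle of 1 mouse was labeled with Cy5 on each array, and a pool of all samples with Cy3 served as the common reference. Values are therefore log2 ratios of Cy5 over Cy3, so that 0 is the level of the pool and levels of different genes cannot be set against each other. Each of the 6 slides, told apart by the barcode of each array, carried 2 Norm and 2 Hypox arrays.

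Nearly all mitochondrial proteins are made in the cytosol and are carried across the mitochondrial membranes by this machinery. The TOM complex of the outer membrane recognizes and takes in precursors, and the sorting and assembly machinery places barrel-shaped proteins in that membrane. Small TIM chaperones and a disulfide relay work in the intermembrane space, and the TIM22 complex inserts carrier proteins into the inner membrane. The TIM23 complex with its ATP-driven motor brings proteins with a presequence into the matrix, where peptidases remove the presequence. Skeletal muscle depends on this supply, since its oxidative fibers are rich in mitochondria.

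The 24 arrays differed strongly in signal. The mean Cy5 signal of an array ranged between 58.3 and 933 in Norm and between 63.5 and 1010 in Hypox, and between 9.42% and 37.8% of the probes were well above background. Slide 1 was the dimmest, with mean signals of 58.3 to 102. The arrays Hypox 12, Norm 12 and Hypox 2 correlated least with the others, with median correlations over the measured probes of 0.28, 0.29 and 0.34, and the other arrays lay between 0.39 and 0.56. Of the 10 skeletal muscle fiber markers, such as *Acta1*, *Ckm* and *Myh4*, all were measured and all were well above background on every array, so that the labeled tissue was borne out.

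Of the 30 measured members, 4 were higher in Hypox and 0 were lower at an unadjusted P-value under 0.05 in limma's moderated test. These were *Grpel1*, a nucleotide exchange factor of the import motor, *Tomm40*, the channel of the TOM complex, *Samm50*, the core of the sorting and assembly machinery, and *Timm50*, a presequence receptor of the TIM23 complex. The share of 13.3% lies near the background, since 12.2% of all genes tested passed the same threshold, 7.17% as higher and 5.07% as lower in Hypox. At an adjusted P-value under 0.05 (Benjamini-Hochberg, over the 9139 genes), 0 members passed, against 0.339% of all genes. The log2 fold change was above 0 for 26 of the 30 members (86.7%), against 58.8% of all genes tested. It was below 0 for *Mtx2*, *Timm23*, *Immp1l* and *Timm8a1*. The median log2 fold change of the members was 0.13, with quartiles of 0.06 and 0.20, and that of all genes tested was 0.03, with quartiles of -0.06 and 0.11. With the arrays centered on their median in place of loess, 0 members passed the unadjusted threshold, and with the deposited values 3 passed, of which *Samm50* was the one among these 4. In these settings 30 and 29 members were above 0, where the median of all genes stood at 0.25 and 0.08, so that 27 and 25 members lay above that median, and 23 did so in the loess values. In total RNA of a whole muscle, fewer cells of a type and less RNA per cell cannot be told apart.

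**Figure D1:**
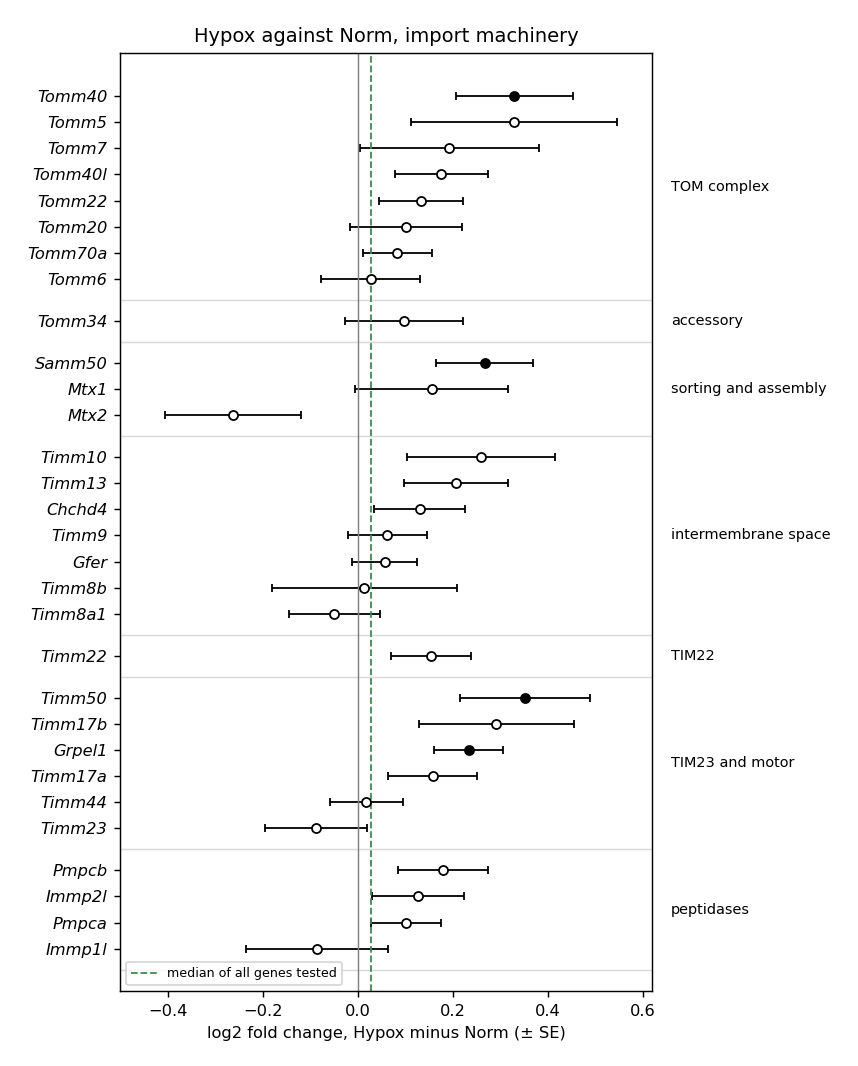
Each point is the log2 fold change (Hypox minus Norm) of 1 of the 30 measured members, with bars of ± 1 SE from limma over 12 Norm and 12 Hypox arrays, grouped by role. Filled points had an unadjusted P-value under 0.05, and the dashed line is the median of all genes tested at 0.03. *Timm50* lies farthest to the right at 0.35 and *Mtx2* farthest to the left at -0.26.

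The promoters of these 4 genes are shown because their transcripts carried the differences that passed the unadjusted threshold. The stretches hold the 250 bases before the RefSeq start of each gene in build GRCm38.p6, written 5′ to 3′ on the strand of the gene. Capitals mark motifs on either strand, which were GCGCATGC (nuclear respiratory factor 1, NRF1), CCGGAAG (GABPA, also called NRF2), ACGTG and GCGTG (the core of hypoxia response elements) and CCAAT. The motifs were searched as exact letters, and where motifs overlap the capitals run together. *Grpel1* lies at chr5:36464935-36465184 on the plus strand, *Tomm40* at chr7:19715430-19715679 on the minus strand, *Samm50* at chr15:84191990-84192239 on the plus strand and *Timm50* at chr7:28312047-28312296 on the minus strand.
Grpel1: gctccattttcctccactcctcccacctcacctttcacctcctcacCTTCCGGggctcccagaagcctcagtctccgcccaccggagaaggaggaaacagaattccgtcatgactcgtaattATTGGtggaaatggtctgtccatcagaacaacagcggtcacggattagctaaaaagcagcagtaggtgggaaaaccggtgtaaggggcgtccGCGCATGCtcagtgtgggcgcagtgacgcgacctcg
Tomm40: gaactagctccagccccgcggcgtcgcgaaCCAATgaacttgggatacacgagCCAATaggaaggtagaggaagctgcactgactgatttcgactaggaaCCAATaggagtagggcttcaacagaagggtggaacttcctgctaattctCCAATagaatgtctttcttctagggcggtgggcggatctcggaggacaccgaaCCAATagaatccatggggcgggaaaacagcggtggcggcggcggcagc
Samm50: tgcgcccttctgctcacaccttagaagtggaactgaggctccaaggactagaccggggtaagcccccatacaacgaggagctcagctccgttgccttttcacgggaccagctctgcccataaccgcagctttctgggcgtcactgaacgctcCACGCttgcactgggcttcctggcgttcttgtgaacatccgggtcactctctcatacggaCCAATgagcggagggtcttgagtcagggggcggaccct
Timm50: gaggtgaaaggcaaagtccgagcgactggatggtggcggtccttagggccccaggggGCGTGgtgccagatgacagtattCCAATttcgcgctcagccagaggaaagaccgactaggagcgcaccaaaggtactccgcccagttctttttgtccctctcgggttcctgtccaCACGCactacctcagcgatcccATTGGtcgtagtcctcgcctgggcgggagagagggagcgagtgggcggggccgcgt

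The *Grpel1* promoter held the NRF1 letters from 36 bases before the start, the GABPA letters from 204 bases before it and a CCAAT box in the reverse direction. The *Tomm40* promoter held 5 CCAAT boxes and no other motif of the search. *Samm50* had 1 GCGTG and 1 CCAAT, and *Timm50* had 2 of each. A promoter was listed for 30 of the 33 members. The GABPA letters were found in 12 of these 30, or 40.0%, and in 6.91% of all 32851 promoters of the same length. The GCGTG letters were found in 16 members, or 53.3%, and in 28.2% of all promoters. ACGTG was found in 5 members (16.7%) against 16.6% of all promoters, CCAAT in 11 members (36.7%) against 33.8%, and the NRF1 letters in 2 members, *Grpel1* and *Timm13* (6.67%), against 2.26%. The members with the GABPA letters were *Grpel1*, *Mtx1*, *Mtx2*, *Pmpca*, *Pmpcb*, *Timm10*, *Timm23*, *Timm8a2*, *Timm8b*, *Tomm22*, *Tomm34* and *Tomm70a*, of which *Grpel1* alone was among the 4 that passed. These matches describe the letters of the windows and were not set against binding. Members were counted by gene and all promoters by window, and the windows were not matched for base composition.

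*Grpel1* showed the smallest P-value of the members. Its log2 ratio ran from -0.69 over a median of -0.43 to -0.03 in Norm, and from -0.31 over a median of -0.14 to 0.06 in Hypox. All 12 Hypox arrays lay above the Norm median and 9 of the 12 Norm arrays lay below the lowest Hypox array, while Norm 10, Norm 11 and Norm 12 reached into the Hypox range. The mean was -0.36 ± 0.20 in Norm against -0.13 ± 0.12 in Hypox (SD, n = 12 each), which gave a log2 fold change of 0.23 ± 0.07 (SE), or 1.18-fold, with an unadjusted P-value of 0.00348 and an adjusted P-value of 0.178 in limma. The difference was above 0 in 6 of 6 slides, between 0.05 and 0.52, and *Grpel1* was the one member for which this held. Among the further pathway genes it also held for *Dnajc15*, *Agk* and *Immt*. The share of all genes for which it held is not given, so that it does not set these genes apart from others. The brighter *Grpel1* probe was printed in 10 spots of each array, lies at mm9 chr5:36814105-36814164 and averaged 52.6 times the background. A further *Grpel1* probe did not reach the threshold, at 1.47 times the background.

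*Tomm40* ran from -0.24 over a median of -0.13 to 0.26 in Norm and from -0.41 over a median of 0.20 to 1.38 in Hypox. The groups overlapped, with 11 of 12 Hypox arrays above the Norm median and the highest value on Hypox 2. The mean was -0.06 ± 0.18 in Norm against 0.27 ± 0.41 in Hypox (SD, n = 12 each), and the log2 fold change was 0.33 ± 0.12 (SE), with a P-value of 0.0126 and an adjusted P-value of 0.258. Without Hypox 2 it was 0.23 ± 0.09, with a P-value of 0.0136. Its probe lies at mm9 chr7:20286707-20286766.

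*Timm50* ran from -0.50 over a median of -0.29 to 0.13 in Norm and from -0.43 over a median of 0.04 to 1.44 in Hypox, and the highest value was again that of Hypox 2. The other Hypox arrays lay at 0.30 or below, and 11 of 12 Hypox arrays lay above the Norm median. The mean was -0.26 ± 0.19 in Norm and 0.09 ± 0.46 in Hypox, and the log2 fold change was 0.35 ± 0.14 (SE), with a P-value of 0.0151 and an adjusted P-value of 0.269. Without Hypox 2 it was 0.23 ± 0.08, with a P-value of 0.00998. Its probe lies at mm9 chr7:29091465-29091522.

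*Samm50* ran from -1.36 over a median of -0.64 to -0.18 in Norm and from -0.69 over a median of -0.37 to 0.05 in Hypox. The lowest arrays were Norm 3 and Norm 9, which shared slide 2, and 11 of 12 Hypox arrays lay above the Norm median. The mean was -0.66 ± 0.31 in Norm and -0.39 ± 0.19 in Hypox, with a log2 fold change of 0.27 ± 0.10 (SE), a P-value of 0.0147 and an adjusted P-value of 0.266. Within slides the difference was 0.75 on slide 2 and -0.005 on slide 6, and it was above 0 on 5 of 6 slides. The *Samm50* probe maps to mm9 chr15:84034487-84037321, a span longer than the probe itself. *Grpel1* and *Samm50* are also among the genes that the study listed as regulated in these same samples, so that their direction is not independent evidence. By gene set enrichment on these samples, the study also reported the MitoCarta pathway of protein import, sorting and homeostasis as upregulated.

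**Figure D2:**
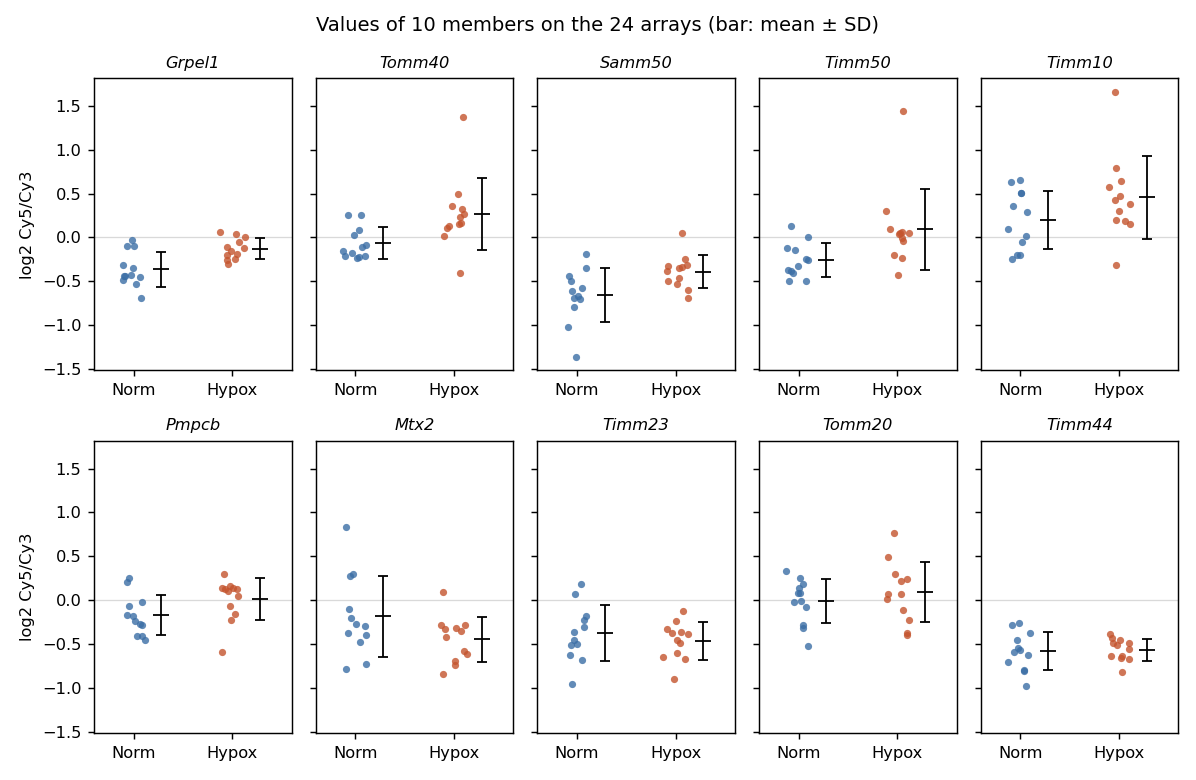
Each point is 1 array (12 Norm, 12 Hypox), the vertical axis is the log2 ratio of Cy5 over Cy3, and the bar beside the points is the mean ± SD. The 4 genes at the upper left passed the unadjusted threshold, and a point far above the rest, Hypox 2, stands at 1.38 for *Tomm40*, 1.44 for *Timm50* and 1.66 for *Timm10*.

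Among the 8 measured genes of the TOM complex, all had a log2 fold change above 0, between 0.03 and 0.33, with a median of 0.16, and 1 passed the unadjusted threshold. Of all genes tested, 58.8% were above 0. *Tomm5*, a small subunit beside the channel, had a log2 fold change of 0.33 ± 0.22 (SE) and a P-value of 0.141. *Tomm7*, another small subunit, had 0.19 ± 0.19, and *Tomm22*, the central receptor that holds the complex together, had 0.13 ± 0.09. *Tomm20*, the main receptor for presequences, ran from -0.52 over 0.04 to 0.34 in Norm and from -0.39 over 0.07 to 0.77 in Hypox, with a log2 fold change of 0.10 ± 0.12 and a P-value of 0.397. *Tomm70a*, the receptor for carrier proteins, ran from -0.36 over -0.16 to 0.14 in Norm and from -0.33 over -0.10 to 0.18 in Hypox, with 0.08 ± 0.07 and a P-value of 0.263. The groups of *Tomm20* and *Tomm70a* overlapped over most of their range. *Tomm6* stood at 0.03 ± 0.10. *Tomm34*, a cytosolic cochaperone counted apart from the complex, had 0.10 ± 0.12. Without Hypox 2 the log2 fold changes were 0.21 for *Tomm5*, 0.08 for *Tomm7*, 0.04 for *Tomm20* and -0.01 for *Tomm34*.

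*Tomm40l*, a second gene for a TOM channel, ran from 0.06 over 0.34 to 0.43 in Norm and from -0.15 over 0.49 to 0.93 in Hypox. Of the 12 Hypox arrays, 6 lay above the highest Norm array, while the lowest array of all was also a Hypox array. Its log2 fold change was 0.18 ± 0.10 (SE), with a P-value of 0.0820, and the study had listed it as regulated in these samples. The log2 fold change of *Tomm40* exceeded that of *Tomm40l* by 0.15, with a 95% interval of -0.17 to 0.48 and a P-value of 0.343 in a two-sided permutation test of the differences within arrays. *Tomm40* was thus not shown to respond differently from *Tomm40l*.

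In the sorting and assembly machinery *Mtx1* and *Mtx2* (metaxins, which sit on the cytosolic side of the outer membrane) had log2 fold changes of opposite sign. With the arrays centered on their median *Mtx2* stood at 0.01, below the median of all genes of 0.25 in that setting. *Mtx2* had the lowest log2 fold change of the members. It ran from -0.78 over -0.28 to 0.84 in Norm and from -0.85 over -0.38 to 0.09 in Hypox, with -0.26 ± 0.14 (SE) and a P-value of 0.0770. On slide 2 the difference reached -1.20, whereas slides 4 and 6 had differences of 0.12 and 0.29. *Mtx1* stood at 0.16 ± 0.16 with Hypox 2 at 1.46, and at 0.02 without that array.

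The 7 measured genes of the intermembrane space gave 0 that passed the threshold and a median log2 fold change of 0.06. *Timm10*, which forms the chaperone hexamer with *Timm9*, ran from -0.25 over 0.20 to 0.65 in Norm and from -0.32 over 0.40 to 1.66 in Hypox, with a log2 fold change of 0.26 ± 0.16 (SE). Its highest array was Hypox 2, and without that array it was 0.15, with a P-value of 0.238. *Timm9* itself stood at 0.06 ± 0.08. *Timm13*, a partner of the *Timm8* chaperones, had 0.21 ± 0.11 and a P-value of 0.0693, while *Timm8b* had 0.01 ± 0.20 and *Timm8a1* had -0.05 ± 0.10. *Timm8b* spread widely, from -0.23 to 1.32 over the Norm arrays and from -0.26 to 1.88 over those of Hypox, and its per-slide difference ran from -0.69 to 0.82. The oxidoreductase of the disulfide relay, *Chchd4*, had 0.13 ± 0.10, and *Gfer*, the sulfhydryl oxidase that reoxidizes it, had 0.06 ± 0.07. *Timm22*, the channel for carrier proteins, had 0.15 ± 0.08 with a P-value of 0.0774.

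The 6 measured genes of the TIM23 complex and its motor held *Timm50* and *Grpel1*, and their median log2 fold change was 0.20. *Timm23*, the channel-forming subunit, did not pass in any setting, and its sign depended on the scaling. It ran from -0.96 over -0.41 to 0.18 in Norm and from -0.90 over -0.42 to -0.12 in Hypox, with -0.09 ± 0.11 (SE), a 95% interval of -0.31 to 0.14 and a P-value of 0.424. *Timm44*, which ties the motor to the channel, ran from -0.98 over -0.58 to -0.26 in Norm and from -0.82 over -0.54 to -0.39 in Hypox, with 0.02 ± 0.08 and a 95% interval of -0.14 to 0.18. The medians of both genes differed little between the groups.

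*Timm17a* and *Timm17b* encode alternative subunits of the TIM23 channel. *Timm17a* ran from -0.79 over -0.22 to -0.03 in Norm and from -0.50 over -0.10 to 0.16 in Hypox, with a log2 fold change of 0.16 ± 0.09 (SE). *Timm17b* ran from -0.42 over -0.14 to 0.05 in Norm and from -0.37 over 0.003 to 1.91 in Hypox, with 0.29 ± 0.16, and its highest array was Hypox 12 on the dimmest slide. Without Hypox 12 the *Timm17b* value was 0.13. The log2 fold changes of the pair differed by -0.13 (*Timm17a* minus *Timm17b*), with a 95% interval of -0.53 to 0.26 and a permutation P-value of 0.558. *Grpel1* could not be compared with its paralogue *Grpel2*, which was not measured.

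The matrix processing peptidase consists of *Pmpca* and *Pmpcb*, and the inner membrane peptidase of *Immp1l* and *Immp2l*. *Pmpcb*, the catalytic subunit, ran from -0.45 over -0.21 to 0.25 in Norm and from -0.59 over 0.12 to 0.30 in Hypox, with a log2 fold change of 0.18 ± 0.09 (SE) and a P-value of 0.0694. The lowest value of *Pmpcb* was that of Hypox 12, and 10 of 12 Hypox arrays lay above the Norm median. *Pmpca* ran from -0.62 over -0.42 to -0.24 in Norm and from -0.71 over -0.32 to -0.06 in Hypox, with 0.10 ± 0.07. The pair differed by -0.08, with a 95% interval of -0.29 to 0.13 and a permutation P-value of 0.448. All 3 comparisons between paralogues had an adjusted P-value of 0.558. *Immp2l* had 0.13 ± 0.10 and *Immp1l* had -0.09 ± 0.15.

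The slides did not show the same members as higher. Within a slide, between 16 and 24 of the 30 members were higher in Hypox, with 16 on slide 2 and 24 on slide 4, and the median difference of the members lay between 0.02 and 0.17. Among all genes the share that was higher ran from 46.2% to 59.1% over the slides. On slide 3, which carries Hypox 2, *Timm50* (0.99), *Tomm7* (0.97), *Tomm5* (0.94), *Timm10* (0.89), *Tomm40* (0.88), *Mtx1* (0.84) and *Tomm34* (0.82) had the largest differences, whereas on slide 2 *Samm50* and *Timm13* (0.79) led and *Mtx2*, *Immp1l* (-0.86), *Timm8b* and *Tomm5* (-0.64) were lower. The per-slide differences of *Pmpcb* kept to between -0.004 and 0.35. Over the members, 13 were higher on 5 or 6 of the 6 slides. The same count over all genes is not given, so that this number describes the members alone. The slide accounted for a median of 24.4% of the variance of a member and the group for 7.82%, against 24.7% and 3.70% over all genes. With 6 slides and 2 groups, the slide takes up more variance even where it has no effect. The share of the slide can therefore not be set against that of the group.

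**Figure D3:**
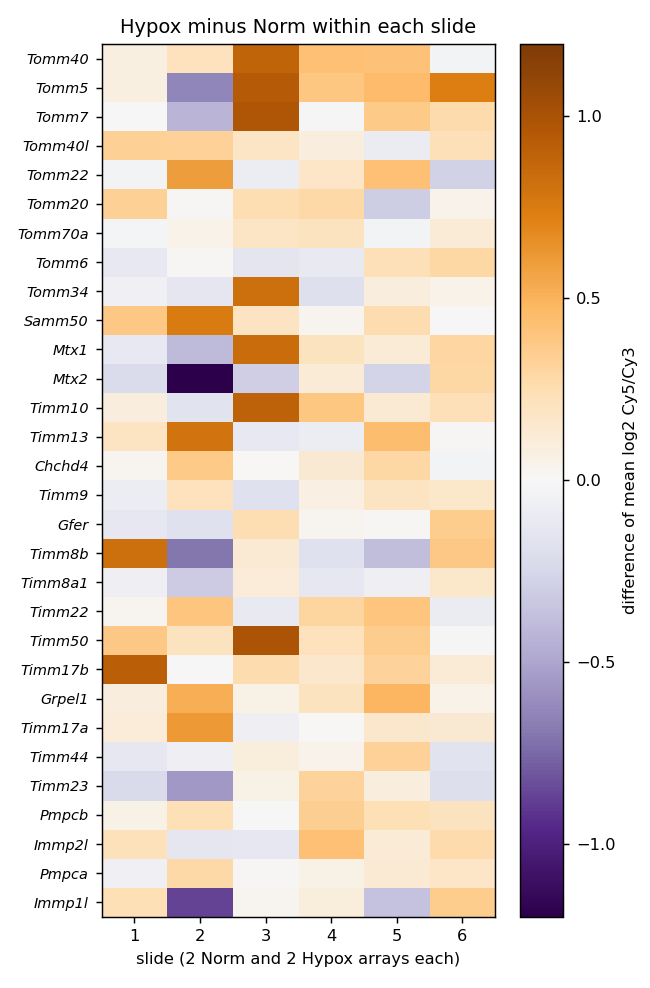
Each cell is the difference of mean log2 Cy5/Cy3 (Hypox minus Norm) of 1 of the 30 members on 1 of the 6 slides, each with 2 arrays a group, with the members in the order of their roles. Slide 3 holds a set of strong differences of 0.82 to 0.99, slide 2 the lowest value of -1.20 for *Mtx2*, and *Grpel1* is above 0 on every slide.

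Single arrays weighed on the members. The mean of the 30 members was -0.14 ± 0.11 in Norm against -0.01 ± 0.11 in Hypox (SD, n = 12 each). It ran from -0.40 to 0.04 over the Norm arrays and from -0.11 to 0.31 over those of Hypox, so that the groups overlapped. Hypox 2 was the highest of all 24 arrays for 9 members and had the highest mean, and Norm 5 was the lowest for 8 members and had the lowest mean. The mean over all genes was likewise highest on Hypox 2, at 0.09. On Norm 5 the mean over all genes was -0.06, and it was lower only on Hypox 1, at -0.07. Hypox 12 was the highest array for 4 members and the lowest for 6. Without Hypox 2 the members above 0 numbered 24 and the median was 0.13, and without Norm 5 they numbered 24 and the median was 0.11. *Tomm40*, *Timm50*, *Samm50* and *Grpel1* passed the unadjusted threshold whichever array was left out. Without the 3 arrays that correlated least with the others, 7 members passed as higher, with *Tomm40* at 0.30 ± 0.08 (P-value of 0.000579, adjusted 0.0524) and *Grpel1* at 0.28 ± 0.08 (P-value of 0.000893, adjusted 0.0564). Over all genes, 15.8% passed in that setting.

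Muscle fibers differ in how many mitochondria they hold, and the slow fiber markers differed between the arrays. Of the 6 slow fiber markers, all measured, 2 were higher in Hypox at the unadjusted threshold (*Tnni1* by 0.61 ± 0.16 and *Tnnc1* by 0.44 ± 0.18, SE) and 0 were lower. The mean of these markers ran from -2.19 to 0.50 over the Norm arrays and from -0.33 to 0.28 over those of Hypox, and the lowest array was Norm 5, the array with the lowest member mean. On Hypox 2, with the highest member mean, it was -0.33, the lowest of the Hypox arrays. Of 10 markers of skeletal muscle fibers 1, *Mylpf*, was higher and 0 were lower at that threshold, with a median log2 fold change of -0.19. Below 0 were *Myh4*, *Pvalb*, *Tnnc2*, *Myh1*, *Tnnt3* and *Myh2*, and above 0 *Mylpf*, *Atp2a1*, *Acta1* and *Ckm*. Of 4 measured adipocyte markers 2, *Adipoq* and *Cfd*, were lower. Of the 3 measured markers of endothelium 1 was higher and 1 lower, and of the 3 measured Schwann cell markers 1 was lower. The surfactant gene *Sftpc*, the one measured marker of lung epithelium among 4, was higher by 0.81 ± 0.31 and reached 2.57 on Hypox 8, and the measured markers of red blood cells and macrophages gave 0 in either direction. The part of these markers in the values of the import genes was not tested.

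For 11 members more than 1 probe was measured, and these probes are separate readings of the same RNA rather than replicates. In the fit over all measured probes, 6 of the 42 member probes (14.3%) passed the unadjusted threshold, all as higher in Hypox, against 14.1% of all measured probes, and 0 passed after adjustment. Beside the 4 genes above, these were a second probe of *Timm10*, with a log2 fold change of 0.30 ± 0.09 (SE) and a P-value of 0.00154, and a second probe of *Tomm5*, with 0.44 ± 0.19 and a P-value of 0.0302. The second *Timm50* probe, at 3.00 times the background, gave 0.09 ± 0.09, and the second *Tomm40* probe, at 2.20 times the background, also gave 0.09, ± 0.07. On Hypox 2 these second probes read -0.44 for *Timm50*, -0.56 for *Tomm40* and -0.34 for *Timm10*, where the brightest probes read 1.44, 1.38 and 1.66. Both *Tomm5* probes were high on that array, at 1.87 and 2.06. The high values of Hypox 2 were thus not shared between the probes of *Timm50*, *Tomm40* and *Timm10*, and were shared between those of *Tomm5*.

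With the group means removed, the readings of the brightest probe and the next correlated over the 24 arrays at 0.81 for *Tomm5*, 0.69 for *Immp1l* and 0.61 for *Immp2l*, but at -0.46 for *Tomm40*, -0.22 for *Timm9*, -0.14 for *Timm50*, -0.13 for *Timm10* and -0.02 for *Timm17b*. One of the *Immp1l* probes carries coordinates on another chromosome than the gene's other probe, so that its target is uncertain. The 3 *Tomm20* probes gave 0.10, 0.02 and 0.23, and those of *Timm17a* gave 0.16 and 0.15. Where all probes of a gene were averaged, *Timm10* (0.28, P-value of 0.00372, adjusted 0.162) and *Timm17b* (0.21, P-value of 0.0347, adjusted 0.328) also passed the unadjusted threshold in limma. In that setting 20% of the members passed, against 13.2% of all genes. On Hypox 12 the brightest *Timm17b* probe read 1.91 and the other -0.05.

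**Figure D4:**
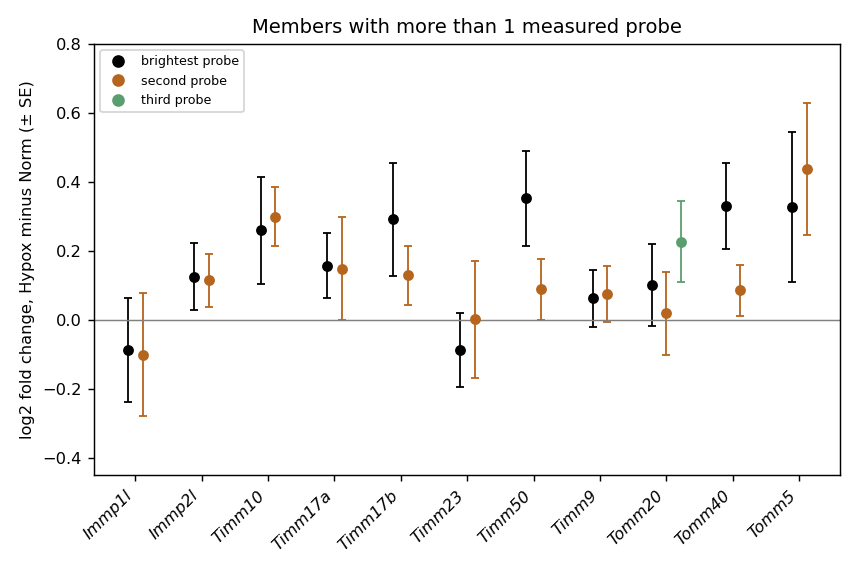
Points are the log2 fold changes (Hypox minus Norm) of each measured probe of the 11 members with more than 1, with bars of ± 1 SE from the limma fit over all measured probes. The log2 fold changes lie close together for *Timm10* (0.26 and 0.30) and *Immp2l* (0.13 and 0.11) and apart for *Timm50* (0.35 and 0.09) and *Tomm40* (0.33 and 0.09). Over the arrays, with group means removed, the *Timm10* probes correlated at -0.13 and those of *Immp2l* at 0.61.

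The members varied together only in part. Over the 24 arrays, with group means removed, the 435 pairs of members had a median correlation of 0.05, against 0.002 for all pairs of genes, and 10.3% of the member pairs exceeded 0.5, against 5.51%. The pairs share arrays, depth and slides, and these values are given as a description. The closest were *Tomm5* with *Tomm7* (0.92), *Timm10* with *Tomm7* (0.88) and *Timm10* with *Tomm5* (0.87), which stayed at 0.88, 0.83 and 0.82 without Hypox 2. *Timm50* with *Tomm40* fell from 0.82 to 0.50 without that array. The spread within groups was about that of other genes, with a median SD of 0.25 for members and 0.23 for all genes.

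Beside the members, 38 further genes of the import and quality control pathway were listed by name, of which 33 were measured. Of these, 6 were higher in Hypox at the unadjusted threshold and 0 were lower, a share of 18.2%, and 0 passed after adjustment. Of all genes tested 12.2% passed that threshold, 7.17% as higher. The median log2 fold change of the further genes was 0.08, against 0.03 over all genes. *Dnajc15*, a J-protein of the import motor, had the largest difference, with 0.05 ± 0.24 in Norm against 0.61 ± 0.58 in Hypox (mean ± SD of 12 arrays each), with a log2 fold change of 0.56 ± 0.17 (SE), a P-value of 0.00234 and an adjusted P-value of 0.145, and it was higher on 6 of 6 slides. *Hspa9*, the Hsp70 that drives the motor and whose nucleotide exchange *Grpel1* serves, was higher by 0.36 ± 0.17, with a P-value of 0.0366. *Timm10b*, a small TIM of the TIM22 complex, was higher by 0.37 ± 0.14, and *Agk*, a kinase that is also part of that complex, by 0.23 ± 0.09. *Chchd6* (0.19 ± 0.07), of the cristae organizing system, and *Clpx* (0.31 ± 0.15), of a matrix protease, completed these 6. The highest Hypox array read 1.81 for *Dnajc15*, 1.72 for *Hspa9*, 1.68 for *Timm10b* and 1.37 for *Clpx*. The Hypox medians of these genes were 0.43, 0.11, 0.49 and -0.01, against Norm medians of 0.10, -0.08, 0.19 and -0.27. The highest Hypox array read 0.69 for *Agk* and 0.32 for *Chchd6*. Values without single arrays are not given for the further genes. *Chchd6* and *Timm10b* had been listed by the study on these samples. The other subunits of the motor did not pass, with *Pam16* at 0.04 ± 0.10 and *Dnajc19* at -0.16 ± 0.24. The matrix chaperonins *Hspd1* and *Hspe1* stood at -0.09 ± 0.07 and 0.14 ± 0.16, and *Mtx3*, *Xpnpep3*, *Yme1l1*, *Oma1* and *Dnajc11* were on the array without reaching the threshold on signal.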

How the data were processed

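Total RNA of *M. gastrocnemius* of 24 mice was hybridized on 24 2-color Agilent arrays. What the authors deposited for each array is the intensity of every spot in both channels with its background, written by Agilent Feature Extraction 10.7.3.1 (per the submitters' processing notes) before any normalization between arrays. The authors also deposited a table of log2 values normalized in GeneMaths XT. Its columns all had a median of 6.58 and correlated at 0.967 to 0.999 with log2 Cy5 and at 0.892 to 0.992 with log2 Cy3, so that its scaling and the part of Cy3 in it are unknown.

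Groups came from the sample labels. The sample descriptions gave the direction of the dyes, because 5 Hypox samples carry dye labels other than Cy5 and Cy3. Intensities were corrected with normexp (offset 50), and log2 Cy5/Cy3 was normalized by loess within arrays. Control spots and 7260 flagged readings were left out, 0 spots were saturated, and repeated spots were averaged by probe. RefSeq genes (GRCm38.p6 names) were assigned to 27235 of the 55681 probes by accession, to 3581 by symbol and to 565 by synonym. Probe coordinates are those of the files (mm9), for which no exon annotation was used here. A probe was measured if its mean Cy5 exceeded 2 times background and it was missing on no more than 4 arrays, and a gene was read from its brightest such probe.

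Hypox was compared with Norm by limma with no covariate (Benjamini-Hochberg over 9139 genes), and pairs of paralogues by permutation (100000 resamples), a test added after the values were seen. All measured members are named, with full values for those past the unadjusted threshold, for core subunits and for paralogues. The rule for the members uses gene names, but the members and gene lists were chosen with earlier results of these data known. The number of arrays limits the precision. Alternatives were a block for slide or for replicate number, array weights, processed signals, median centering, Cy5 alone, the methods' t-test, the deposited values, the mean over all probes of a gene, other filters on signal, and leaving out arrays or slides. R 4.3.3, limma 3.58.1, Python 3.11.15 and matplotlib 3.10.9 were used, and the limma fit was tested on simulated data.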

Additional observations from a re-analysis of the deposited data

How the results depend on the processing

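Of the 4 members that passed, *Grpel1*, *Tomm40*, *Samm50* and *Timm50*, none changed sign in any alternative run. Median centering in place of loess brought the median of all genes to 0.25 (0.03 as reported) and left 0 members past the unadjusted threshold, with a member median of 0.44 (0.19 above that of all genes) and 32 genes past over the whole table. With the deposited values the member median was 0.28 (0.20 above that of all genes) and 488 genes passed, and of the 4 members *Samm50* alone passed, beside *Timm17b* and *Tomm40l*. Over all genes 722 passed with Cy5 alone and 1939 without the filter on dim probes, against 1118 as reported. With array weights 8 members (26.7%) passed the unadjusted threshold as higher, and 1718 of all genes (18.8%) passed it in either direction. After adjustment 2 members passed in that setting (*Tomm40* and *Grpel1*), and the number over all genes is not given beside it. With the replicate block 1 member passed as lower (*Mtx2*, P-value of 0.0244) and 6 as higher, and 1194 genes passed. The numbers of Norm and Hypox arrays show no pairing, since their deviations correlated between -0.21 and 0.51 and over 0.1 in 3 of 12 pairs, and 2 arrays correlated best with their own number. Alternatives chosen after seeing the data gave 7 members as higher without the 3 least correlated arrays, and 4 without the 2 dimmest slides, where *Timm50* no longer passed (P-value of 0.0554).

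Leaving out each array in turn gave 4 to 7 members as higher (7 without Hypox 12), 0 to 1 as lower (*Mtx2*), 0 after adjustment, member medians of 0.11 to 0.16 and 974 to 1289 genes past. These members changed sign. *Immp1l* was 0.14 with the deposited values and 0.30 with median centering, *Timm23* was 0.28, 0.46 and, with processed signals, 0.00114, and *Timm8a1* was 0.0294 and 0.19. *Mtx2* was 0.00792 with median centering. These values of *Mtx2* and *Timm8a1* lie below the median of all genes in the same settings (0.25 with median centering, 0.08 with the deposited values), so that relative to it neither gene turned. *Timm44* was -0.0241 with Cy5 alone and -0.0541 with processed signals, where *Tomm34* was -0.0777 and *Tomm7* was -0.0223. *Timm8b* was -0.20 with array weights, -0.15 without the dimmest slide, -0.22 without the 3 least correlated arrays and -0.14 without the 2 dimmest, where *Tomm20* was -0.000238. Over single arrays left out, *Tomm34* ran from -0.00652 to 0.14, *Immp1l* from -0.14 to 0.0146, *Timm8a1* from -0.0869 to 0.00614, *Tomm6* from -0.0144 to 0.0772, *Timm44* from -0.0181 to 0.0472 and *Timm8b* from -0.12 to 0.10. The causes were not tested.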
